A study of Mus musculus with 12 samples.

Results

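Of 12 RNA-seq libraries of isolated mouse cardiomyocytes, 3 were selected on their mitochondrial share: more than 55% of their gene counts came from the 13 protein genes that mitochondrial DNA carries. They are sham saline replicate 2, NX saline replicate 3 and sham JV101 replicate 2, and they are set against the other 9. Since measured values chose them, the mitochondrial share and everything built on it are given as description, with no test. Tests were run on nuclear genes alone, scaled to each library's nuclear total.

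All mice were wild-type C57BL6, and the labels give heart as the tissue and cardiomyocytes as the cells. NX JV101 mice had 5/6 nephrectomy, the removal of most kidney tissue, and an injection of JV101, and NX saline mice had the nephrectomy and saline. Sham JV101 mice had sham surgery and JV101, and sham saline mice sham surgery and saline. The labels do not say what JV101 contains; the series title names telomere recapping by gene therapy. All were killed 16 weeks after surgery, and each group has 3 polyA libraries made from 1.3 ug of total RNA. The labels number the replicates without saying that they are separate animals, so each p-value reflects the spread among these libraries, which may be technical. They give neither age nor sex. The rule picks 1 library in each of 3 groups and 0 in NX JV101, so that group informs the spread of the nuclear comparison but not its difference.

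The mitochondrial genome is a small circle transcribed as long RNAs from both strands by the polymerase Polrmt with the factors Tfam and Tfb2m. Cutting out the tRNAs releases the messengers, most of which receive a short polyA tail from Mtpap and are bound by Lrpprc and Slirp. Its protein genes all encode membrane subunits of the respiratory chain: ND1 to ND6 with ND4L in complex I, CYTB in complex III, COX1 to COX3 in complex IV, and ATP6 and ATP8 in ATP synthase. The remaining subunits of complexes I, III, IV and V, and all of complex II, come from nuclear genes. Heart muscle cells are packed with mitochondria, and mitochondrial messengers are a large share of their polyA RNA.

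Several mitochondrial genes have nuclear copies, pseudogenes whose letters match them, and the sequences below show how close 2 of these copies are. They are the first 60 bases compared, from the GENCODE vM21 transcripts of GRCm38, an older assembly than the GRCm39 of the deposited counts. Capitals mark a base that differs within a pair.
COX2: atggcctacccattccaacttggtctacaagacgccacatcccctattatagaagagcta
Gm28661: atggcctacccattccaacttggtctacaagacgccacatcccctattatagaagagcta
ND3: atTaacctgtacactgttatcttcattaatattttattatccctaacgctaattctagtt
Gm28438: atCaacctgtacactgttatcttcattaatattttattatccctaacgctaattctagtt
COX2 and its copy Gm28661 were the same at all 681 bases compared. ND3 and Gm28438 shared 344 of 345, the difference being T3C, counted from the first base of ND3. COX3 (783 bases), ATP6 (678), ND4L (294) and the copied 876 bases of ND4 also had a copy on chromosome 1 with 0 differences. Of all runs of 50 bases in each gene, 100% for COX2, 99.9% for COX3, 99.5% for ATP6, 98.8% for ND4L and 98.0% for ND3 also occurred letter for letter in an annotated nuclear transcript. The share was 62.2% for ND4, 51.1% for COX1, 8.2% for ND2, 7.6% for ND5, and 0 for CYTB, ND1, ND6 and ATP8.

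The selected libraries stood at 69.0% (sham saline 2), 66.5% (NX saline 3) and 58.4% (sham JV101 2) mitochondrial counts. The other 9 ran from 36.7% to 52.9% with a median of 44.2%, so the library just inside the threshold had 58.4% and the one just outside, NX JV101 1, had 52.9%. Both the numerator and the denominator of the share differed. Mitochondrial counts were 18634899, 17548088 and 16363115 in sham saline 2, NX saline 3 and sham JV101 2, against 11996720 to 16718241 in the others. Nuclear counts were 8382302, 8859037 and 11650047 in the same 3 libraries, against 14449496 to 20720011. Total counts were also the lowest of the series, at 27017201, 26407125 and 28013162 against 29790709 to 33834238. For each nuclear count there were 2.22, 1.98 and 1.40 mitochondrial counts, against 0.579 to 1.12.

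**Figure D1:**
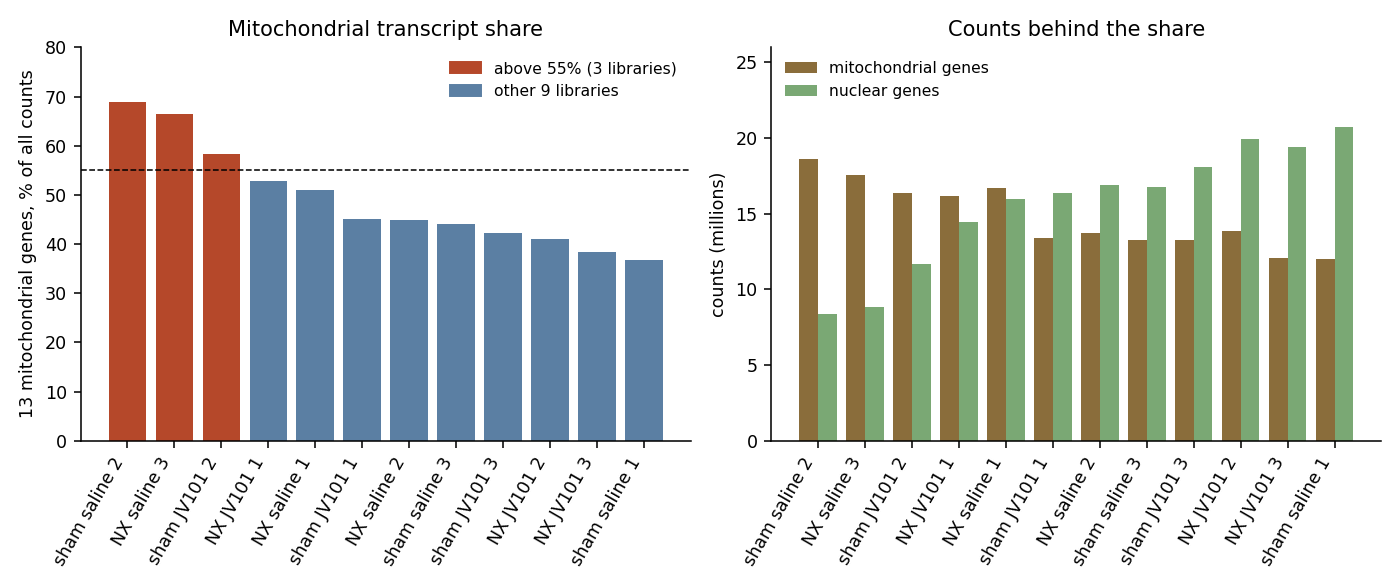
Left, the percent of all gene counts from the 13 mitochondrial protein genes in each library, with the 55% threshold dashed. Right, the counts from mitochondrial and from nuclear genes in the same libraries. The 3 selected libraries have the fewest nuclear counts, 8382302 to 11650047, and mitochondrial counts of 16363115 to 18634899 that overlap the upper end of the others.

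COX1, the catalytic core of complex IV, alone took 31.0%, 29.4% and 25.97% of all counts in sham saline 2, NX saline 3 and sham JV101 2, against 16.4% to 23.1% in the other libraries. CYTB followed with 10.96%, 10.85% and 9.09%, against 5.89% to 8.72%. The labelled marker ND2 stood at 6.41%, 5.88% and 5.18%, against 3.33% to 4.55%. For these genes, and for ND1, ND4, ND5 and ND6, the selected libraries lay above all others. The remaining pair of markers gave smaller shares: COX2 at 0.611%, 0.681% and 0.412% against 0.184% to 0.483%, and ATP6 at 0.274%, 0.194% and 0.295% against 0.0920% to 0.206%. Both overlapped the other libraries.

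The mix of messengers within the mitochondrial counts was nearly the same in every library. COX1 made up 44.5% ± 0.306 of them in the selected libraries and 44.0% ± 0.456 in the others (SD, n = 3 and 9, as for all means here). CYTB was at 15.9% ± 0.386 and 16.2% ± 0.221, ND1 at 11.4% ± 0.0524 and 11.7% ± 0.387, and ND5 at 10.5% ± 0.633 and 10.9% ± 0.759. ND2 was at 9.001% ± 0.2501 and 9.13% ± 0.490, ND4 at 6.42% ± 0.0878 and 6.30% ± 0.114, and ND6, the protein gene read from the opposite strand, at 0.158% ± 0.00899 and 0.155% ± 0.0227. These 7 genes together held 97.9%, 97.9% and 98.2% of mitochondrial counts in sham saline 2, NX saline 3 and sham JV101 2, against 98.1% to 98.6%.

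The other 6 genes, COX2, COX3, ATP6, ATP8, ND3 and ND4L, made up 2.05%, 2.06% and 1.83% of mitochondrial counts in sham saline 2, NX saline 3 and sham JV101 2, against 1.37% to 1.92%. Of these 6 genes, 5 are the ones whose 50-base runs occur almost entirely in nuclear transcripts, and the sixth, ATP8, overlaps ATP6. COX2 was at 0.872% ± 0.160 of mitochondrial counts in the selected libraries and 0.683% ± 0.141 in the others, ATP6 at 0.398% ± 0.107 and 0.291% ± 0.0676, and COX3 at 0.614% ± 0.0935 and 0.555% ± 0.0717. ND3 (0.0338% ± 0.0127 and 0.0454% ± 0.0237) and ND4L (0.0600% ± 0.0239 and 0.0629% ± 0.0151) also overlapped. ATP8 was lower in each selected library, at 0.00641%, 0.00397% and 0.00616% against 0.00699% to 0.0129%. Per length, in the deposited FPKM of the other 9 libraries, the median was 125893 for COX1, 4279 for COX2, 3030 for COX3, 1722 for ATP6 and 208 for ATP8. How reads matching several places, or overlapping genes, were counted is not given in the sources used here, and its part in these levels was not tested.

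**Figure D2:**
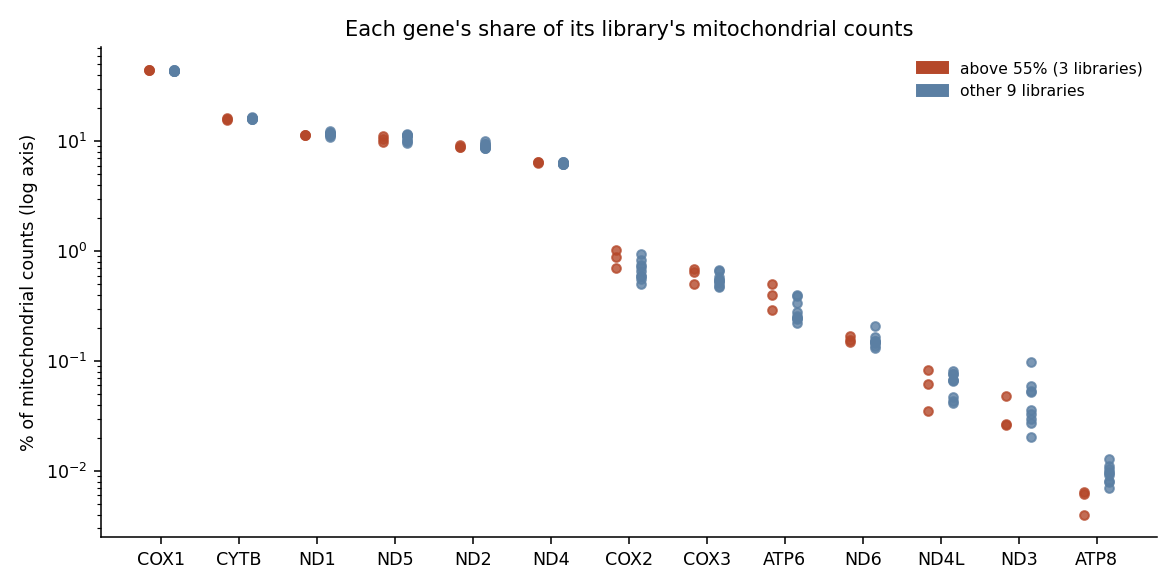
Percent of a library's mitochondrial counts taken by each of the 13 genes, on a log axis, with 1 point per library. Selected libraries lie left of the others at each gene. From COX1 (about 44% in both) to ND4 the points nearly coincide, while COX2, COX3, ATP6, ND4L, ND3 and ATP8 are lower and more scattered.

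The nuclear partners of these proteins took a like share of nuclear counts in both sets of libraries. The 79 measured nuclear genes for respiratory subunits took 5.94%, 5.55% and 6.59% of nuclear counts in sham saline 2, NX saline 3 and sham JV101 2, against 5.75% to 7.12% in the others (means 6.03% ± 0.521 and 6.25% ± 0.461). For each count of a nuclear subunit there were 37.4, 35.7 and 21.3 mitochondrial counts, against 10.1 to 17.4. The subunit share overlapped between the sets of libraries, and the ratio, which contains the selecting share, did not.

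**Figure D3:**
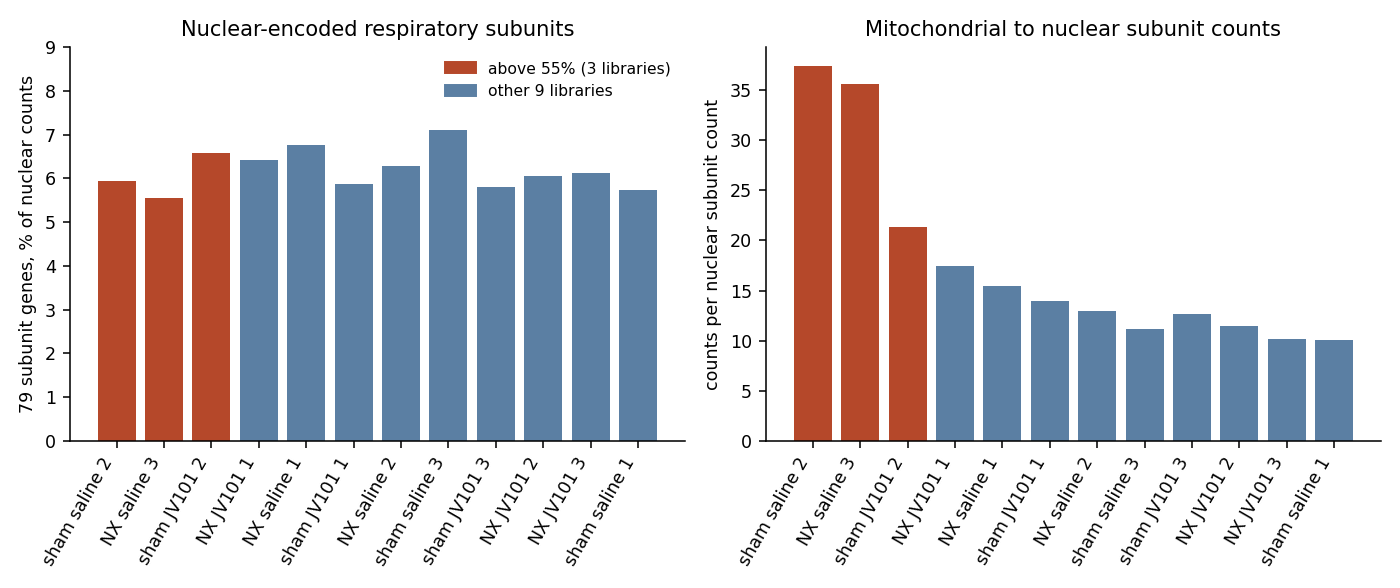
Left, the percent of nuclear counts from 79 nuclear genes of respiratory complexes I to V. Right, mitochondrial counts per count of those genes. The left bars overlap between selected (5.55% to 6.59%) and other libraries (5.75% to 7.12%), and the right bars run from 21.3 to 37.4 in selected libraries and 10.1 to 17.4 in the others.

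Measures of each library that the rule did not use showed no detectable difference. Thinned to 8382302 nuclear counts, the selected libraries held 16613 ± 452 nuclear genes and the others 16803 ± 350 (2-sided exact permutation over 220 arrangements, adjusted p = 0.891). The 10 most abundant nuclear genes took 12.2% ± 1.32 and 12.4% ± 1.78 of nuclear counts (adjusted p = 0.891 by the same permutation test), and the 50 most abundant 23.2% ± 2.31 and 23.5% ± 2.59 (0.891). The transcript length at the middle of the nuclear counts was 3388 ± 88.1 and 3238 ± 164 bases (0.636). Pearson correlations of log2 levels over genes, a description in which genes are not independent, were 0.971 to 0.983 between selected libraries and 0.926 to 0.989 between others. Over 5 bins of genes from short to long, the median log2 fold change (selected over others) was −0.09, −0.06, −0.01, 0.04 and 0.08.

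For the nuclear genes the question is whether libraries rich in mitochondrial messengers differ in anything else. Of 14509 nuclear genes tested, 0 passed an adjusted p of 0.05 by edgeR's quasi-likelihood test (0% called, smallest adjusted p = 0.337). At an unadjusted p under 0.05 there were 386 higher genes (2.66%) and 408 lower genes (2.81%), 794 in all. DESeq2 called 10 genes, and limma on the deposited FPKM called 0 (859 at an unadjusted p under 0.05 with a pseudocount of 1). In the direction of every group, 535 genes (3.69%) lay above both of their group's other libraries in all 3 groups and 574 (3.96%) below both. There are 27 ways to take 1 library from each of these groups. About 1 gene in 27 would thus meet each order with no difference between libraries. Ignoring groups, 153 genes (1.05%) were higher in all 3 selected libraries than in any other and 123 (0.848%) lower. For these orders there are 220 ways to take 3 of 12 libraries. About 1 gene in 220 would thus meet each with no difference between libraries or groups. Neither share was tested against this, and genes are not independent. The 794 became 277 without sham saline 2, 2844 without sham JV101 1 and 459 to 1097 in the alternative fits.

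Among the 12 genes with the smallest p on the higher side, Ms4a1, Pax5 and Cd79a belonged to the list of lymphocyte markers. Hvcn1, the proton channel of immune cells, stood at 7.46, 6.54 and 3.27 CPM (TMM-scaled counts per 1000000 nuclear counts) in sham saline 2, NX saline 3 and sham JV101 2, against 0.922 to 2.48 with a median of 1.73 (log2 fold change 1.85, SE 0.27; edgeR adjusted p = 0.337). It did not overlap, and DESeq2 called it (adjusted p = 5.68e-06). Cd79a, part of the B cell receptor, was at 8.41, 8.06 and 3.72 CPM against 0.348 to 2.63 (2.17, SE 0.53), and Ms4a1, the surface protein CD20, at 9.83, 5.45 and 3.54 CPM against 0.307 to 3.28 (2.08, SE 0.47). Both lay above all other libraries. Pax5, the B lineage transcription factor, had a log2 fold change of 1.74 (SE 0.41), and its lowest selected library (1.36 CPM) lay below the highest other (1.66 CPM).

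Further genes of the same rule were the lipoxygenase Alox15 (1.93, SE 0.29), the lymphocyte GTPase Gimap3 (1.91, SE 0.34), the receptors P2ry10 (1.81) and Il9r (3.15), the T and B cell phosphatase Ptpn22 (1.77), the zinc finger gene Zfp800 (0.71) and LOC118567441 (1.82). Alox15 was at 10.7, 7.30 and 2.81 CPM, against 0.448 to 3.66, and so overlapped. Both Alox15 and Gimap3 were called by DESeq2 (adjusted p = 1.24e-05 and 0.00103) but not by edgeR (adjusted p = 0.337 and 0.848). Il9r (SE 0.73) was at 1.89, 2.40 and 1.18 CPM, against 0 to 0.919 with a median of 0.0548. Il9r also passed the filter in the fit of the other libraries alone, although most of its levels there were near 0. Zfp800 lay apart at 18.2, 15.8 and 17.4 CPM, against 7.75 to 12.7. All of these further genes lay above both group mates in all 3 groups, an order that choice by smallest p in the same within-group fit favours. Most of their levels are a few CPM or less. In single fits that each left out 1 library, the log2 fold change of Hvcn1, chosen by its small p in these libraries, stayed between 1.65 and 2.04.

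**Figure D4:**
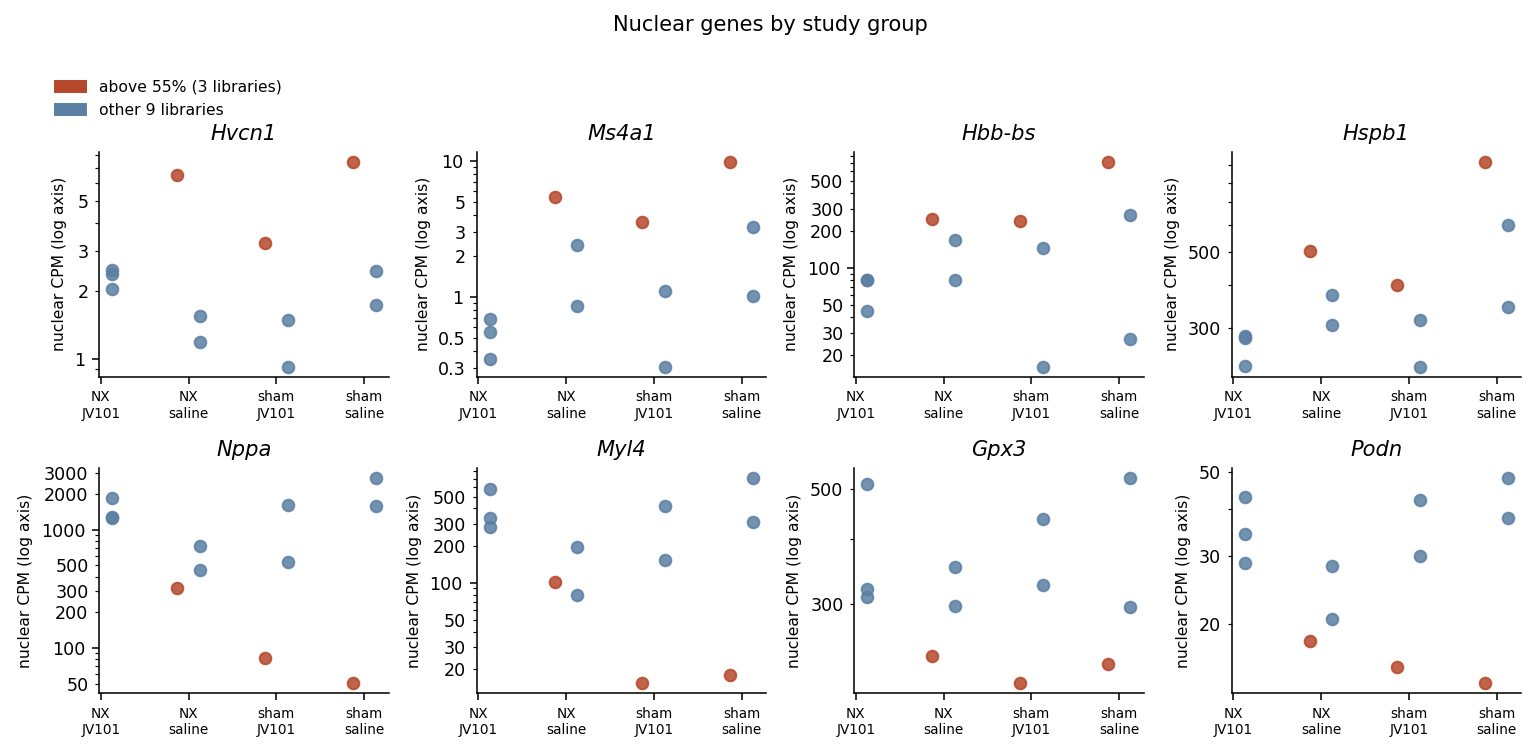
CPM of 8 nuclear genes on log axes, by study group, with selected libraries as the left point of their group and NX JV101 holding none. Hvcn1 and Ms4a1 are higher, and Gpx3, Podn and Nppa lower, in all 3 selected libraries than in any other, while Hbb-bs, Hspb1 and Myl4 overlap.

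Lymphocyte markers as a list had 8 of 12 measured members above the filter, 7 of them higher, with a median log2 fold change of 1.46 against −0.01 over all nuclear genes tested. Of the 8, 5 had an unadjusted p under 0.05 on the higher side, against 2.66% of all genes, and 3 were higher in all selected libraries than in any other, against 1.05% of all genes. Their summed level was 43.3, 43.4 and 20.8 CPM in sham saline 2, NX saline 3 and sham JV101 2, against 5.78 to 15.1. Cd52, a surface protein found across lymphocytes, was at 7.82, 9.80 and 5.44 CPM, against 1.72 to 7.13 (0.96, SE 0.40). The T helper co-receptor Cd4 had a log2 fold change of 0.85 (SE 0.70) and Cd3g, of the T cell receptor complex, −0.23 (SE 0.84). Other T cell and natural killer genes were too sparse for the filter, and only ratios of their rates per TMM-scaled nuclear count, selected over others, are given. Cd3e, with 16 counts in the selected libraries and 22 in the others, had a ratio of 4.04 (95% counting interval 1.99 to 8.06). The cytotoxic T cell co-receptor Cd8a (26 and 47 counts) had 3.08 (1.83 to 5.07), Nkg7 (15 and 32) 2.61 (1.31 to 4.95) and Cd3d (12 and 52) 1.28 (0.623 to 2.44). Of the Nkg7 counts, 13 of the 15 came from NX saline 3 and 22 of the 32 from NX JV101 2. In bulk samples, a change in the number of cells of a type and a change in RNA per cell cannot be told apart.

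Red cell genes were the other blood list that stood high. All 6 tested members were higher, with a median of 1.75, and 5 had an unadjusted p under 0.05, against 2.66% of all genes on the higher side. Hbb-bs, the main adult beta globin, was at 717, 248 and 238 CPM in sham saline 2, NX saline 3 and sham JV101 2, against 16.0 to 268 with a median of 80.5 (1.65, SE 0.69). Alas2, which starts heme synthesis in red cells, was at 50.9, 15.9 and 21.5 CPM, against 0.430 to 18.6 (1.95, SE 0.82). Hbb-bt alone did not overlap, at 146, 47.6 and 51.7 CPM against 2.64 to 46.6. Summed, the markers reached 1481, 491 and 545 CPM, against 35.8 to 535. Globin genes come as near-identical copies, so counts of each copy are uncertain. Removing the hemoglobin genes and Alas2 from the nuclear total left 0 calls by edgeR (779 at an unadjusted p under 0.05, DESeq2 not run).

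Other blood and vessel lists had few or no members at such a p. Macrophage markers had a median of 0.09 (10 of 16 higher, 1 with an unadjusted p under 0.05 against 2.66% of all genes, Plac8 at 1.19, SE 0.50). Neutrophil markers had a median of −0.76 (7 of 8 lower, 0 with such a p), and S100a9 ranged from 2.01 to 10.5 CPM in the selected and 0.508 to 37.9 CPM in the other libraries. All 16 endothelial markers were higher, with a median of 0.30 and 0 with an unadjusted p under 0.05, and the median was −0.10 without NX saline 3. That library had the highest summed endothelial level, 6930 CPM, against 2778 in sham saline 2, 3796 in sham JV101 2 and 1196 to 6629 in the others. Fibroblast markers had a median of 0.00, with Fn1, fibronectin, at 235.4, 185 and 164 CPM against 55.04 to 155 (0.80, SE 0.31). Mesothelial markers had a median of 0.29 (9 of 10 higher, 0 with an unadjusted p under 0.05).

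Cardiomyocyte identity was present throughout: the 22 shared cardiomyocyte markers summed to 137874, 115282 and 160980 CPM in sham saline 2, NX saline 3 and sham JV101 2, against 97630 to 185513. Their median log2 fold change was −0.15, with 19 of 22 lower, and it was −0.03 without NX saline 3 and −0.33 without sham JV101 2. The ventricular markers had a median of −0.09, with Myl2, the ventricular light chain, at −0.10 (SE 0.19) and Irx4, a ventricular transcription factor, at −0.79 (SE 0.35).

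Atrial markers stood low in the selected libraries. Of 12 tested, 9 were lower, with a median of −1.45, and 7 had an unadjusted p under 0.05, against 2.81% of all genes on the lower side. Nppa, the atrial natriuretic peptide, was at 50.6, 324 and 82.3 CPM in sham saline 2, NX saline 3 and sham JV101 2, against 453 to 2712 with a median of 1277 (−2.97, SE 0.83; edgeR adjusted p = 0.890), without overlap. Fgf12, a sodium channel regulator, was at 0.237, 2.40 and 0.0907 CPM, against 3.07 to 19.2 (−3.16, SE 0.94), also without overlap. The atrial light chains Myl4 (17.8, 102 and 15.3 CPM against 79.2 to 703; −2.81, SE 0.94) and Myl7 (−2.78, SE 1.04), sarcolipin Sln (−2.94, SE 1.07), Dkk3 (−1.76, SE 0.66) and Stard10 (−1.08, SE 0.39) overlapped. NX saline 3 was the highest selected library for each of these 7 genes. The list median was −0.90 without sham saline 2 and −2.75 without NX saline 3. Atrial transcription factors Nr2f1 (0.08, SE 0.45) and Nr2f2 (0.18, SE 0.34) and the channel Kcna5 (0.56, SE 0.59) lay on the other side. The summed level was 900, 1335 and 1072 CPM, against 1411 to 5680. DESeq2 called Fgf12 (adjusted p = 0.0145).

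Of the 12 genes with the smallest p on the lower side, Hamp and Mlana had very few counts in the selected libraries. Hamp, hepcidin, had 0 counts in the selected libraries and 216 in the others, at least 12.9-fold lower when 3 counts over the selected libraries are taken as the floor. Mlana had 1 count in the selected libraries and 275 in the others (ratio of rates 0.020, 95% counting interval 0.0005 to 0.114). Podn, a small matrix proteoglycan, was at 14.0, 18.0 and 15.4 CPM in sham saline 2, NX saline 3 and sham JV101 2, against 20.6 to 48.1 (−1.07, SE 0.25), without overlap. Ptgfr, the prostaglandin F receptor, was at 1.89, 4.68 and 1.63 CPM, against 4.92 to 14.99 (−1.89, SE 0.45). DESeq2 called both (adjusted p = 0.0404 for Podn and 0.0245 for Ptgfr). The others were Rida (−0.90, SE 0.19), Tmem97 (−1.22), Gstm6 (−1.55), the transporter Slc16a12 (−1.34), the erythropoietin receptor Epor (−1.73), Cpxm2 (−0.69) and Gm32849. These genes lay below both group mates in all 3 groups, an order that choice by smallest p in the same fit favours. Rida, Tmem97, Gstm6 and Slc16a12 lay below all other libraries.

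Nuclear respiratory genes lay slightly to the lower side. Of all nuclear genes tested 48.5% were higher, and of the bin of shortest genes 34.9%, with a median of −0.09. The part of gene length in the values below was not tested. For complex I, 34 of 36 nuclear subunits were lower, with a median log2 fold change of −0.09, and 12 of 13 of complexes II and III (−0.09), 14 of 14 of complex IV (−0.08) and 15 of 16 of complex V (−0.08). None had an unadjusted p under 0.05. Cox4i1, the main nuclear subunit of complex IV, was at 1829, 1644 and 2075 CPM in sham saline 2, NX saline 3 and sham JV101 2, against 1689 to 2379 (−0.08, SE 0.15). Without NX saline 3 the 4 medians turned to 0.03, 0.03, 0.05 and 0.03, and without sham JV101 2 they were −0.25, −0.28, −0.26 and −0.26. Of 35 assembly factors 3 had an unadjusted p under 0.05, all lower, against 2.81% of all genes on that side: Ndufaf3 (24.5, 25.3 and 30.4 CPM against 27.4 to 45.2; −0.50, SE 0.15), Sdhaf1 (−0.36, SE 0.16) and Ndufaf7 (−0.33, SE 0.14).

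**Figure D5:**
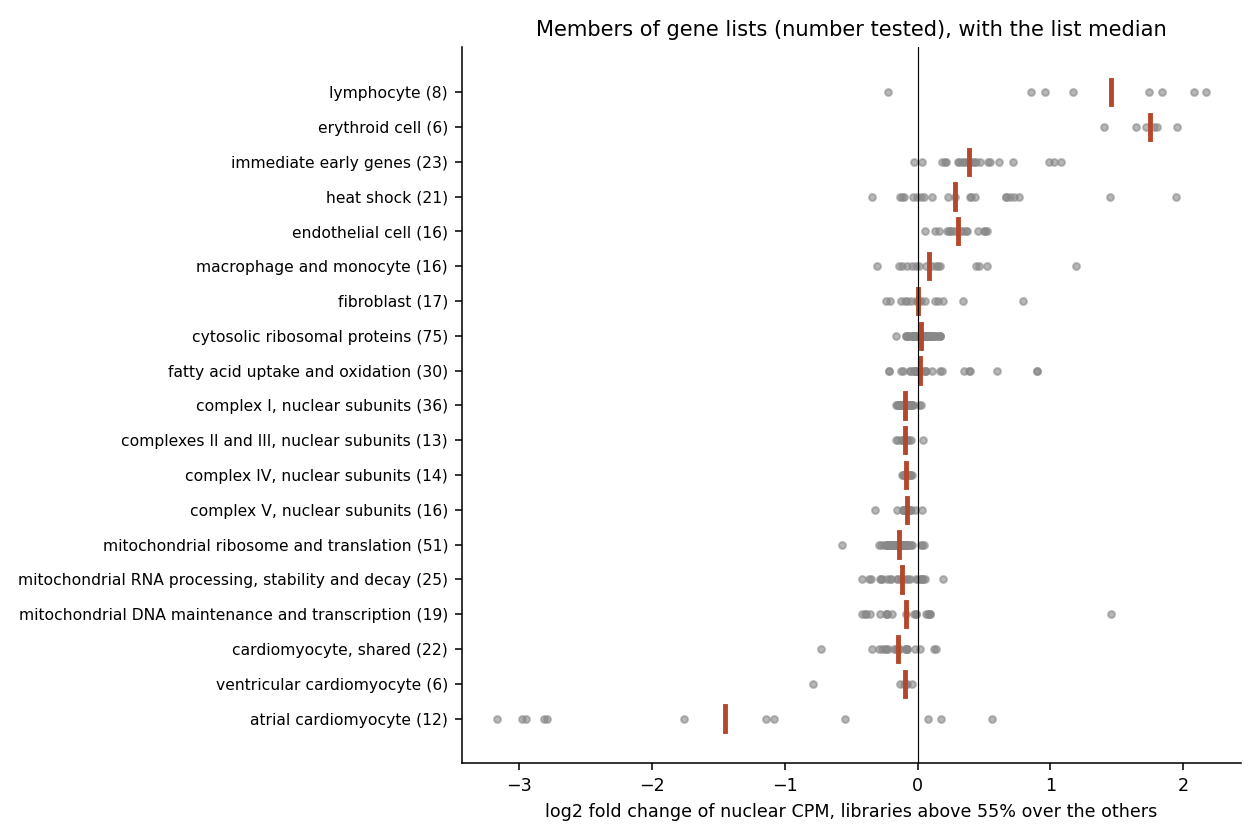
Log2 fold change of nuclear CPM, selected over other libraries, for the tested members of 19 gene lists (points) with the list median (bar). Lymphocyte and red cell medians are 1.46 and 1.75, the atrial median is −1.45, and the medians of the respiratory complexes lie at −0.09 to −0.08.

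The machinery that makes and keeps mitochondrial RNA gave small differences. Tfam, which packs mitochondrial DNA and starts its transcription, was at 47.0, 43.8 and 56.8 CPM in sham saline 2, NX saline 3 and sham JV101 2, against 45.0 to 58.4 (−0.09, SE 0.13). Polrmt was at 35.3, 30.5 and 37.0 CPM, against 28.5 to 53.3 (−0.23, SE 0.18), and Tfb2m at 55.2, 54.0 and 68.5 CPM, against 53.4 to 78.2 (−0.19, SE 0.16). The elongation factor Tefm had −0.36 (SE 0.17). All 4 overlapped the other libraries. In the same list of 19 tested genes Tk2, a mitochondrial thymidine kinase, and the terminator family member Mterf2 had an unadjusted p under 0.05 on the lower side, against 2.81% of all genes (−0.38, SE 0.17, and −0.40, SE 0.18). Mterf1b alone lay above all other libraries, at 2.49, 1.31 and 1.18 CPM against 0.0615 to 1.15 (1.46, SE 0.67).

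After transcription, the messenger-binding pair Lrpprc (320, 254 and 344 CPM against 179 to 359; 0.02, SE 0.23) and Slirp (−0.28, SE 0.16) overlapped the other libraries. So did the polyA polymerase Mtpap (32.4, 26.8 and 33.4 CPM against 24.4 to 34.98; 0.05, SE 0.14) and the RNA decay enzymes Pnpt1 (0.02, SE 0.16) and Supv3l1 (−0.36, SE 0.20). Of 25 tested genes of mitochondrial RNA processing 0 had an unadjusted p under 0.05, with 18 lower and a median of −0.12. The mitochondrial ribosome list had 48 of 51 lower, a median of −0.14 and 1 such gene on the lower side (2.81% of all genes), the initiation factor Mtif3 (14.6, 14.5 and 19.7 CPM against 14.99 to 29.9; −0.57, SE 0.22). Protein import had 22 of 24 lower (−0.13), the citric acid cycle 22 of 22 lower (−0.10) and glycolysis 18 of 19 lower (−0.18), with the glucose transporter Slc2a1 at −0.52 (SE 0.18). The medians of RNA processing and of the mitochondrial ribosome were both −0.03 without NX saline 3, and −0.26 and −0.29 without sham JV101 2. Cytosolic ribosomal proteins were on the other side, 54 of 75 higher with a median of 0.03. Of all nuclear genes tested, 48.5% were higher.

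Regulators of mitochondrial content were split evenly, 8 of 16 higher. Ppargc1a, the coactivator PGC-1α, was at 409, 176 and 203 CPM in sham saline 2, NX saline 3 and sham JV101 2, against 81.1 to 234 (0.53, SE 0.33), with only sham saline 2 outside the range of the others. Its relative Pprc1 was at 0.31 (SE 0.14) with an unadjusted p under 0.05, 1 of 16 against 2.66% of all genes on the higher side. Nrf1 (0.29, SE 0.19) and the receptor Esrra (−0.16, SE 0.20) overlapped. Fatty acid oxidation genes had a median of 0.02, with 17 of 30 higher and Acot1, a thioesterase, at 31.1, 24.9 and 13.2 CPM against 7.68 to 23.6 (0.60, SE 0.24).

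Single heat shock and immediate early genes were higher in the selected libraries, while the summed levels of both lists overlapped. Summed heat shock genes were at 15660, 10625 and 14761 CPM in sham saline 2, NX saline 3 and sham JV101 2, against 9621 to 15689 with a median of 11711. Of 21 heat shock genes 15 were higher, with a median of 0.28, and 7 had an unadjusted p under 0.05 on the higher side (2.66% of all genes). The small chaperone Hspb1 was at 921, 504 and 400 CPM in sham saline 2, NX saline 3 and sham JV101 2, against 231 to 601 (0.70, SE 0.19). Hspa1b, an inducible Hsp70, was at 267, 40.5 and 59.2 CPM, against 5.47 to 256 with a median of 15.6 (1.95, SE 0.74), and Hsp90aa1 at 761, 283 and 339 CPM, against 118 to 511 (0.76, SE 0.30). Both were above their group mates in every group while overlapping the libraries as a whole. Immediate early genes, which respond within minutes to stimulation, were higher in 22 of 23 cases with a median of 0.39. Their summed level was 6133, 6618 and 4661 CPM in sham saline 2, NX saline 3 and sham JV101 2, against 2505 to 7339 with a median of 4903. Fosb (392, 176 and 104 CPM against 60.2 to 212; 1.08, SE 0.37), Atf3 (0.99, SE 0.36) and Fos (0.72, SE 0.29) had an unadjusted p under 0.05, 3 of 23 against 2.66% of all genes on the higher side.

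Of other lists, 1 of 22 antioxidant genes lay below all other libraries, against 0.848% of all genes. Among 18 clock genes, of which 11 were lower, 1 lay above all other libraries, against 1.05% of all genes. Gpx3, a secreted glutathione peroxidase, was at 230, 239 and 212 CPM in sham saline 2, NX saline 3 and sham JV101 2, below all others at 297 to 524 (−0.71, SE 0.23). Clock, the activator of the circadian loop, was at 88.7, 79.4 and 72.0 CPM, above all others at 36.2 to 68.7 (0.47, SE 0.19). The clock outputs Dbp (18.6, 15.1 and 17.4 CPM against 13.6 to 160, overlapping, −1.65, SE 0.74) and Ciart (−1.67, SE 0.69) were at the low end. Of the stress and fetal genes, skeletal actin Acta1 was at 154, 144 and 512 CPM, against 251 to 616 (−0.89, SE 0.29), Ankrd1 at −0.66 (SE 0.27), Rcan1 at 0.59 (SE 0.26) and Nppb at −0.08 (SE 0.49).

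Among the 9 other libraries, where the share still ran from 36.7% to 52.9%, nuclear genes were tested for a slope on it. Of 14791 genes 0 passed by edgeR and 95 (0.642%) had an unadjusted p under 0.05; DESeq2 called 0, with 134 at that p. The 95 became 611 without sham JV101 1, 612 without sham JV101 3, 197 without NX JV101 1, 63 without sham saline 1, 59 without sham saline 3 and 52 without NX JV101 3. The smallest p belonged on the rising side to 1700066B17Rik, LOC118568062, Zfp973, the lymphocyte activation gene Cd69 and the metal transporter Slc39a8 (0.75 per 10 percentage points, SE 0.21). On the falling side they belonged to the stress gene Ddit4 (−1.20, SE 0.31), the amino acid transporter Slc43a2 (−0.50, SE 0.14), Gm19378, Apol9a and Gm12185. Ddit4 ran from 174.6 CPM in sham saline 3 to 38.7 CPM in NX JV101 1, and was at 108, 102 and 50.8 CPM in the selected libraries.

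List medians of this slope, per 10 percentage points, are set beside the medians of the selected libraries, which share the 9 other libraries. The mean share was 64.6% in the selected libraries and 44.0% in the others, a gap wider than 10 points. The 2 kinds of median are therefore on unlike scales, and their sizes cannot be compared. Red cell markers had 1.68 beside 1.75, and lymphocyte markers 0.38 beside 1.46. Atrial markers had 0.04 beside −1.45, immediate early genes −0.45 beside 0.39, heat shock genes 0.00 beside 0.28 and endothelial markers −0.42 beside 0.30. The 4 lists of nuclear respiratory subunits had 0.16, 0.17, 0.18 and 0.17 beside −0.09, −0.09, −0.08 and −0.08.

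The 4 comparisons of the study's groups were refitted on nuclear counts with and without the selected libraries, since 1 of 3 libraries in 3 groups carried the high share. Leaving all 3 out leaves 2 libraries in each of those groups. In NX saline against sham saline edgeR called 0 genes in either fit, with 517 at an unadjusted p under 0.05 over 12 libraries and 233 without the selected ones, and DESeq2 called 1 over 12 libraries. The 517 became 862 without NX saline 1, 859 without sham JV101 3 and 803 without sham JV101 1. For NX JV101 against NX saline edgeR called 0 in either fit, with 341 and 258 genes at that p (204 without NX JV101 3), and DESeq2 called 8.

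The comparison of sham JV101 with sham saline gave 0 calls by edgeR and by DESeq2, with 244 genes at an unadjusted p under 0.05 by edgeR and 170 without the selected libraries. The 244 became 394 without sham saline 1, 143 without sham saline 3 and 954 without sham JV101 3. The comparison of NX JV101 with sham JV101 likewise gave 0 calls by both tools, with 335 and 143 genes at that p, and 2032 without sham JV101 1, 187 without sham JV101 2 and 105 without NX JV101 3.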

How the data were processed

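The labels describe RNA of isolated cardiomyocytes purified with an RNeasy kit and made into polyA libraries (VAHTS Universal V6). The submitters' processing notes name fastp, HISAT2, HTSeq and GRCm39; no source used here gives versions, annotation, strand or multi-mapping settings. The deposited counts (22794 genes, 13 of them mitochondrial) were used for all tests, and the authors' FPKM for levels per length and as an alternative. Of the gene symbols, 97.0% were found in reference tables.

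Nuclear counts were kept with filterByExpr (minimum count 10, total 15), TMM-scaled to nuclear totals and fitted with edgeR's quasi-likelihood model over 12 libraries with study group and an indicator of the selected libraries, 2-sided, Benjamini-Hochberg adjusted over all genes kept, threshold 0.05. SE is the absolute log2 fold change over the square root of F. CPM are TMM-scaled. The slope was fitted on the other 9 libraries with group. Library measures used exact permutation, adjusted over 4 measures. Runs of 50 bases were compared with GENCODE vM21 transcripts. Intervals and the 3-count floor cover counting error only. Genes were named by smallest p, 12 per direction, 5 per direction for the slope, up to 4 per list, and 12 set regulators of mitochondrial RNA and content; some others were named after their values were seen. A few genes that the rule names are not reported here. The selected libraries and lists were chosen with earlier results of these data known. Total counts, the denominator of the rule, were not tested. Scripts were tested on simulated data. Alternatives were RLE, upper-quartile and no scaling factors, keeping all genes, keeping those over 5 CPM in 3 libraries, DESeq2, limma on log2 FPKM (pseudocounts 1 and 0.1), no group term, a continuous share, 3 groups only, a replicate block, an adjusted p of 0.01 and leaving out each library. Software was edgeR 4.0.16, DESeq2 1.42.0 and limma 3.58.1 under R 4.3.3.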

Additional observations from a re-analysis of the deposited data

How the results depend on the processing

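No gene passed by edgeR under any scaling, filter or design tried, apart from leaving out NX saline 2, where 1 gene, Aldh1l1, passed in the comparison of selected with other libraries (range 0 to 1 over the 12 libraries left out). DESeq2 called 10 genes there (5 higher, 5 lower), 1 gene (Niban3) in NX saline against sham saline and 8 in NX JV101 against NX saline. The study comparisons and the slope gave 0 in every fit without 1 library. With the replicate number as a block, 0 genes passed in each result, and 459 instead of 794 had an unadjusted p under 0.05 between selected and other libraries. Log2 levels correlated at 0.926 or higher in every pair of libraries. On a different measure, correlations of same-numbered samples ran from −0.61 to 0.30. For replicate 2, which holds sham saline 2 and sham JV101 2, they ran from −0.09 to 0.28. Whether same-numbered samples share a batch cannot be told from these values. Over 1102 alternative fits of 45 named genes none changed sign and 7 passed, all by DESeq2. Most of these genes were named for a small p in the same libraries, so a stable sign was likely beforehand and is no separate support. The library measures did not pass in any fit: without 1 library, the difference in genes detected at equal depth ran from −371 to 63.7, in the share of the 10 most abundant genes from −0.822 to 0.480 points, and of the 50 most abundant from −1.33 to 0.962 points. These leave-one-out fits of library measures, and the fit without hemoglobin genes, were chosen after seeing the data. With 3 selected libraries, 8382302 to 11650047 nuclear counts each and levels of a few CPM for many named genes, small differences were not detectable.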
